A study of Homo sapiens with 24 samples.

Results

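The CCT chaperonin, also called TRiC, is a protein-folding machine of the eukaryotic cytosol. Its 8 subunits are TCP1, CCT2, CCT3, CCT4, CCT5, CCT6A, CCT7 and CCT8. Their transcripts were followed in a human mammary epithelial line during activation of MYC. The 8 genes were taken by symbol from a table of 60668 gene rows, each matched 1 row, and all 8 were among the 22158 genes that passed the low-count filter. MCF-10A is an immortalised, non-tumorigenic human mammary epithelial line. The study used parental MCF-10A cells and MCF-10A MYC-ER cells, which carry MYC fused to the hormone-binding domain of the estrogen receptor, so that the ligand 4-hydroxytamoxifen (4-OHT) switches the fusion on. Both lines were grown as 3D cultures on Matrigel and received 1 µM 4-OHT for 0, 8, 24 or 48 h, which gave 8 groups of 3 libraries. All cultures were harvested together on day 5, so a longer treatment began earlier, from day 3 for 48 h. The labels name no vehicle for the 0 h groups, and the promoter of the transgene and whether the MYC-ER line is a clone or a pool are not given in the sources used here. The parental line received the same drug and therefore shows what 4-OHT did without the fusion.

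CCT assembles from 8 different but related subunits arranged in a pair of stacked rings, each subunit at a fixed place, around a chamber that closes when ATP is bound and hydrolysed. A ring needs each subunit, and none replaces another in the common form of the complex. Actins and tubulins are its obligate clients, and many proteins with WD40 propellers, such as the cell cycle regulator CDC20 and the mTOR partner MLST8, also fold in it. Prefoldin hands nascent actin and tubulin to CCT, and phosducin-like proteins work with it during folding. MYC is a transcription factor known for raising genes of growth and protein synthesis.

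Library totals ran from 136860029 to 182438505 counts, and the subunits held between 23640 counts (CCT2) and 156316 counts (CCT3) in a library. Levels are given as CPM, counts scaled to library size with TMM factors. Changes are log2 ratios from edgeR's quasi-likelihood fit over all 24 libraries, with p-values adjusted by Benjamini-Hochberg over the 22158 genes, and a gene was called at an adjusted p under 0.05. The labels describe wells seeded in triplicate and do not name separate cultures, so p-values measure the spread between these samples, which may be technical. The row of MYC itself cannot separate endogenous from fusion transcripts. It stood at 387 CPM in MYC-ER cells at 0 h, 795 CPM at 8 h, 321 CPM at 24 h and 248 CPM at 48 h. The 4 parental group means were 463 to 532 CPM. Against 0 h in MYC-ER cells, MYC was thus lower at 24 h (-0.27, adjusted p = 0.00152) and 48 h (-0.64, adjusted p = 7.19e-08). Among 10 markers of a basal mammary epithelial line, KRT5 was between 6763 and 14121 CPM in all 24 libraries, and EPCAM fell as low as 1.73 CPM. Defining markers of endothelium (CDH5), T cells (CD3E) and fat (ADIPOQ) had 0 counts. Other markers of those tissues were detected at low levels, up to 2.32 CPM for PECAM1 (endothelium), 2.87 to 9.03 CPM for CD14 (monocytes), and for PLIN1 (fat) 0.731 to 1.71 CPM in MYC-ER libraries against 0.0811 to 0.570 CPM in parental ones. The summed level of the 10 epithelial markers was lower in MYC-ER libraries (11926 to 27787 CPM) than in most parental ones (24950 to 39176 CPM), and its part in the results was not tested.

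In GRCh38 coordinates of GENCODE v29 the 8 genes lie on 7 chromosomes. TCP1, which encodes the alpha subunit, is at chr6:159778498-159789749 on the minus strand (ENSG00000120438.12). CCT2 (beta) is at chr12:69585334-69601570 on the plus strand, CCT3 (gamma) at chr1:156308968-156367873 on the minus strand and CCT4 (delta) at chr2:61868089-61888804 on the minus strand. CCT5 (epsilon) is at chr5:10249921-10266412, CCT6A (zeta) at chr7:56051630-56063989 and CCT7 (eta) at chr2:73233420-73253021, all on the plus strand. CCT8 (theta) is at chr21:29055805-29073797 on the minus strand. CCT4 and CCT7 share chromosome 2 but are not neighbours.

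Before any treatment, all 8 subunit transcripts were lower in MYC-ER cells than in parental cells. CCT3, the most abundant of them, was at 316, 332 and 340.1 CPM in the 3 untreated MYC-ER libraries and at 879, 756 and 929.7 CPM in the 3 untreated parental libraries. The groups did not overlap, and the fitted difference was -1.38 (SE 0.070, adjusted p = 1.82e-13), 2.59-fold lower. CCT5, 1 of the subunits that bind ATP tightly, was at 158, 171 and 169.6 CPM in MYC-ER cells against 421, 397 and 434 CPM in parental cells, a difference of -1.33 (SE 0.054, adjusted p = 3.52e-15). CCT7 was at 179, 192 and 196 CPM against 490.4, 385 and 476 CPM. The second parental library was the lowest of its group for CCT3, CCT5 and CCT7 and still lay above every untreated MYC-ER library. The difference for CCT7 was -1.25 (SE 0.070, adjusted p = 8.95e-13). TCP1 differed least, at 196, 206 and 202 CPM against 332, 344 and 365 CPM, a difference of -0.79 (SE 0.059, adjusted p = 1.29e-10).

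All 8 subunits were called lower at 0 h, where 32.7% of all genes tested were called lower in MYC-ER cells. Their median difference was -1.02 on the log2 scale, between -1.38 for CCT3 and -0.79 for TCP1, while the median over all genes tested was 0.00. Summed over the 8 subunits, untreated MYC-ER cells held 1507 ± 50.4 CPM (SD, n = 3) and parental cells 3284 ± 215 CPM, so the MYC-ER sum was 45.9% of the parental one. In such bulk libraries, fewer cells of a type and less RNA per cell cannot be told apart. The summed level of 7 fibroblast markers was also different in this group, 369.6 to 377 CPM in untreated MYC-ER libraries against 77.3 to 133 CPM in the other 7 groups, nearly all from COL1A1 and DCN. COL1A2, COL3A1 and PDGFRA were at 0.0618 CPM or less in all libraries. The part of these markers in the result was not tested.

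After 8 h of 4-OHT, all 8 subunit transcripts in MYC-ER cells had risen between 2.23-fold and 3.27-fold. CCT5 rose from 158, 171 and 169.6 CPM to 559, 531 and 544 CPM, with a log2 fold change of 1.71 (SE 0.054, adjusted p = 4.66e-17). CCT2, also a tight ATP binder, went from 137, 144 and 148 CPM to 470.4, 452 and 458 CPM, a change of 1.69 (SE 0.052, adjusted p = 2.97e-17). CCT4, the third of the tight ATP binders, went from 150.1, 155 and 159.6 CPM to 433, 408 and 421 CPM, a change of 1.44 (SE 0.056, adjusted p = 1.13e-15). In each of these 3 genes the lowest library at 8 h was far above the highest at 0 h.

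CCT3, CCT6A and CCT8 sit side by side in the ring and bind ATP weakly. CCT3 rose from 316, 332 and 340.1 CPM to 1047, 980.2 and 1013 CPM, with a log2 fold change of 1.62 (SE 0.071, adjusted p = 8.73e-15). CCT6A rose from 164, 172 and 174 CPM to 471, 457 and 459 CPM, a change of 1.44 (SE 0.046, adjusted p = 4.37e-17). CCT8 had the smallest rise of the 8, from 149, 153 and 156 CPM to 355, 327 and 339 CPM, with a change of 1.16 (SE 0.049, adjusted p = 5.84e-15). The 0 h and 8 h libraries did not overlap for any of them. TCP1 rose from 196, 206 and 202 CPM to 586, 577 and 579 CPM, a change of 1.53 (SE 0.060, adjusted p = 1.52e-15). CCT7 rose from 179, 192 and 196 CPM to 456, 423 and 452 CPM, a change of 1.23 (SE 0.070, adjusted p = 8.41e-13).

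The 8 of 8 calls compare with 32.2% of all genes tested that were called higher at 8 h. The median change of the subunits was 1.49, and that of all genes tested was -0.10. The summed level reached 4266 ± 112 CPM (SD, n = 3), 2.83-fold the untreated level and the highest of the 8 groups. All 8 subunits kept this call in each of the 35 other settings tried for this comparison, which included leaving out each library.

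**Figure D1:**
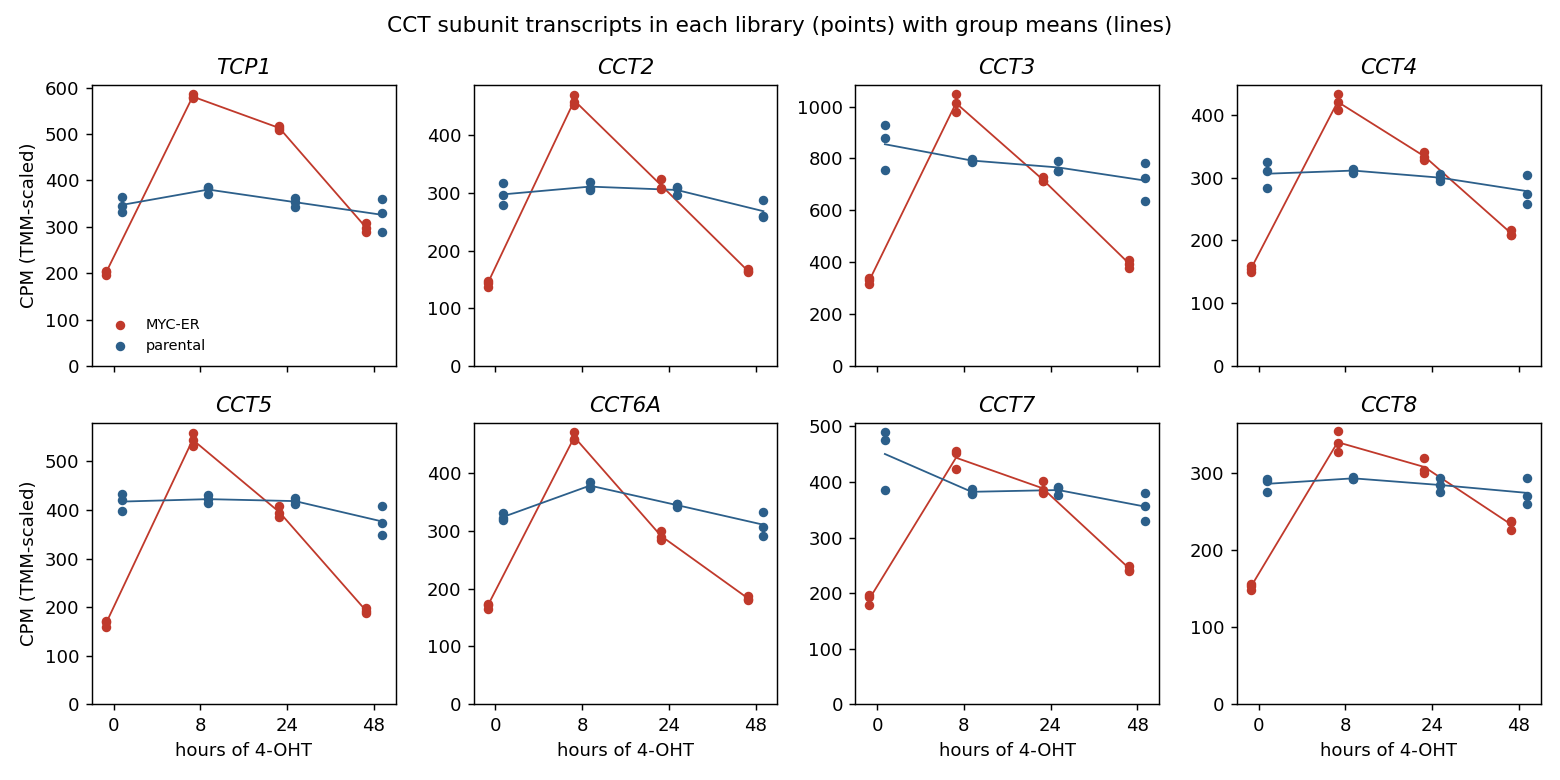
CPM (TMM-scaled, y axes start at 0) of each subunit in all 24 libraries against hours of 4-OHT, with the 4 times evenly spaced. Points are libraries, lines join the means of 3, MYC-ER in red and parental in blue; in every panel the MYC-ER line peaks at 8 h and the parental line stays within a narrower band, for example CCT2 at 143 ± 5.48 CPM and 460.0 ± 9.55 CPM in MYC-ER cells at 0 and 8 h.

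The rise shrank with longer treatment. At 24 h, all 8 subunits were still called higher than at 0 h (background 30.4% of genes tested), with a median change of 1.12. TCP1 had the largest change, at 517, 508 and 513 CPM and a change of 1.35 (SE 0.060, adjusted p = 1.41e-14). CCT6A had the smallest, at 299.9, 284 and 289.6 CPM and a change of 0.78 (SE 0.045, adjusted p = 1.56e-12). At 48 h, 7 of the 8 were called higher than at 0 h (background 23.4%), with a median change of only 0.31. CCT8, which had risen least at 8 h, was the highest above its 0 h level, at 238, 236 and 226 CPM and a change of 0.61 (SE 0.049, adjusted p = 9.75e-10). TCP1 was next, at 308, 298 and 288 CPM and 0.57 (SE 0.059, adjusted p = 6.24e-08). CCT2 was at 169, 164 and 163 CPM, a change of 0.21 (SE 0.051, adjusted p = 0.00214), and CCT5 at 198, 191 and 188 CPM, a change of 0.21 (SE 0.053, adjusted p = 0.00282).

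CCT6A was the exception at 48 h, at 188, 181 and 182 CPM against 164, 172 and 174 CPM at 0 h. Its libraries did not overlap, and its change of 0.11 (SE 0.045, adjusted p = 0.0547) missed the threshold. It passed the threshold in 11 of 35 other settings. These were scaling by library size (0.27, adjusted p = 5.66e-06) or upper quartile (0.15, adjusted p = 0.00448), the stricter count filter (0.13, adjusted p = 0.0126), DESeq2's Wald test (0.11, adjusted p = 0.0265) and only the groups compared in the fit, without (0.12, adjusted p = 0.00573) or with (0.10, adjusted p = 0.0195) the GC trend removed. The others left out the second parental library at 0 h (0.11, adjusted p = 0.0420), the third at 0 h (0.12, adjusted p = 0.0180), the first at 8 h (0.12, adjusted p = 0.0326), the first at 48 h (0.11, adjusted p = 0.0361) or the third at 48 h (0.11, adjusted p = 0.0306).

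Between consecutive times the whole set came down. From 8 to 24 h all 8 subunits were called lower, beside 27.1% of all genes tested, with changes from -0.67 for CCT6A to -0.14 for CCT8. The falls of TCP1 (-0.18), CCT7 (-0.19) and CCT8 (-0.14) were sensitive to scaling. Without TMM factors these 3 turned to 0.027, 0.015 and 0.063, with adjusted p of 0.632, 0.841 and 0.188, and 5 of 8 stayed called lower, as they did under upper quartile scaling. Those scalings moved the median change of all genes tested from 0.05 to 0.26 and 0.15. CCT7 also missed the threshold without the first or the third MYC-ER library at 8 h or the second or the third at 24 h, with changes between -0.19 and -0.17 (adjusted p up to 0.0762). CCT8 missed it without the first MYC-ER library at 8 h (-0.11, adjusted p = 0.0888) or the second (-0.13, adjusted p = 0.0667) or the third (-0.13, adjusted p = 0.0562) at 24 h, and with the stricter count filter (-0.11, adjusted p = 0.0520). The falls of CCT2 and CCT6A were the steepest, at -0.55 (SE 0.051, adjusted p = 5.21e-09) and -0.67 (SE 0.045, adjusted p = 3.30e-11). From 24 to 48 h all 8 were called lower again (background 25.5%), from -1.04 for CCT5 to -0.40 for CCT8, with a median of -0.73. The summed level was 3262 ± 66.2 CPM at 24 h and 1922 ± 49.96 CPM at 48 h, 1.27-fold the untreated sum.

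**Figure D2:**
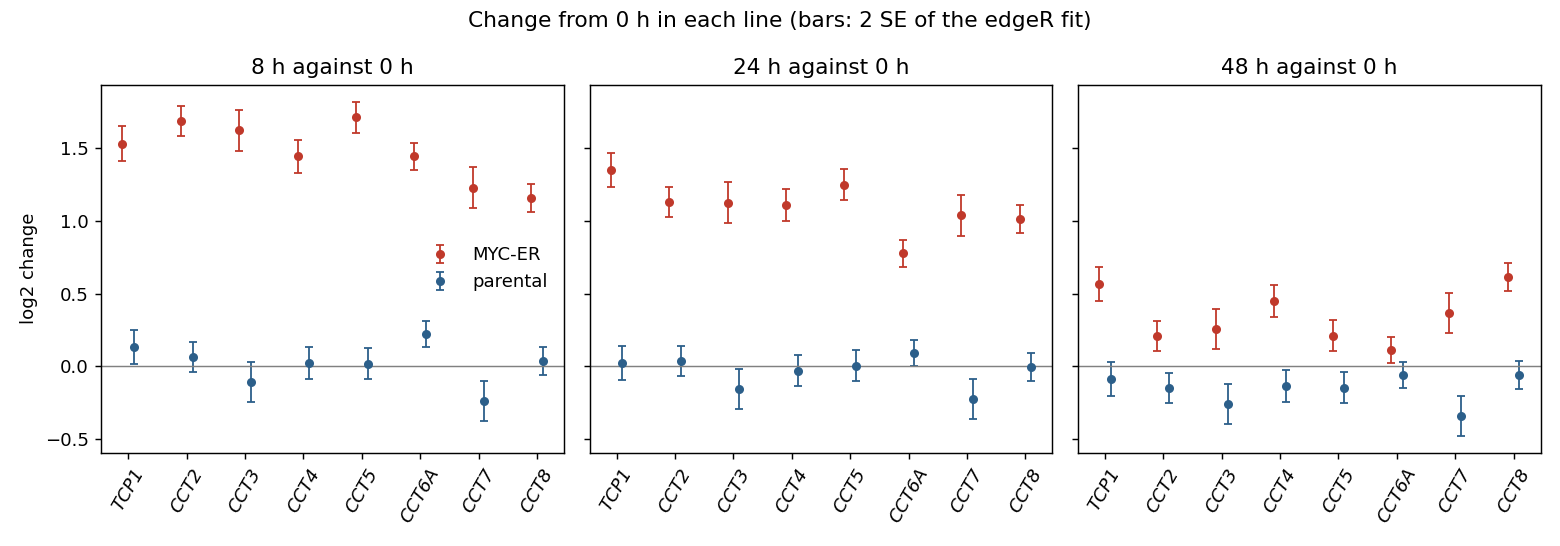
Log2 change from 0 h of each subunit at 8, 24 and 48 h (left to right), MYC-ER in red and parental in blue, with bars of 2 SE from the edgeR fit. The MYC-ER points lie between 1.16 and 1.71 at 8 h and between 0.11 and 0.61 at 48 h, and the parental points between -0.34 and 0.22 over the 3 times.

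In parental cells under the same drug the subunits stayed close to their 0 h level. At 8 h, CCT6A was called higher (background 15.0%), at 384, 375 and 377 CPM against 332, 322 and 319 CPM, a change of 0.22 (SE 0.045, adjusted p = 8.19e-04). CCT7 was called lower (background 16.0%), at 380.4, 388 and 379 CPM against 490.4, 385 and 476 CPM, a change of -0.24 (SE 0.069, adjusted p = 0.0127). The second 0 h library lay within the 8 h range for CCT7, and the other 0 h libraries lay above it. Without the first or the third 0 h library the call of CCT7 was lost, at -0.17, adjusted p = 0.0951 and -0.18, adjusted p = 0.0667. The other 6 subunits had changes between -0.11 and 0.13 that did not pass the threshold.

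At 24 h, CCT7 alone was called lower in parental cells (background 21.7%), at 377, 389 and 390.3 CPM and -0.22 (SE 0.069, adjusted p = 0.0114). Its call was lost without the first (-0.16, adjusted p = 0.0910) or the third (-0.16, adjusted p = 0.0776) library at 0 h. At 48 h, 4 of the 8 were called lower (background 20.1%). CCT7 was at 330.3, 356 and 380.4 CPM, a change of -0.34 (SE 0.069, adjusted p = 4.77e-04). CCT3 was at 637, 723 and 784 CPM, a change of -0.26 (SE 0.069, adjusted p = 0.00462). CCT2 changed by -0.15 (SE 0.051, adjusted p = 0.0230) and CCT5 by -0.15 (SE 0.053, adjusted p = 0.0296). For all 8 subunits the first 48 h library was the lowest and the third the highest, and the summed level ran from 2671 to 3152 CPM over the 3. Without the third library the count rose to 7, and without the first or the second it was 2. It was also 2 without the first library at 8 h, and 1 without the third at 0 h.

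The parental changes at 48 h moved with the base composition of the transcripts. CCT3 and CCT7 have the highest GC content of the 8, 51.2% and 51.8% of their principal transcripts, against 43.1% to 44.7% for the other 6, and they had the 2 lowest changes at each time. With each library's trend of expression on GC content removed, all 8 subunits were called lower at 48 h, between -0.30 and -0.20, and CCT3 and CCT7 no longer stood below the rest. CCT6A at 8 h then missed the threshold, at 0.12 (adjusted p = 0.0970), and so did CCT7 at 24 h, at -0.14 (adjusted p = 0.117). CCT8 at 24 h was then called lower, at -0.18 (adjusted p = 0.0308). CCT7 at 8 h remained called and the lowest of the 8, at -0.18 (adjusted p = 0.0466). When only the groups compared entered the fit, no subunit was called at any parental time, with or without the GC correction.

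**Figure D3:**
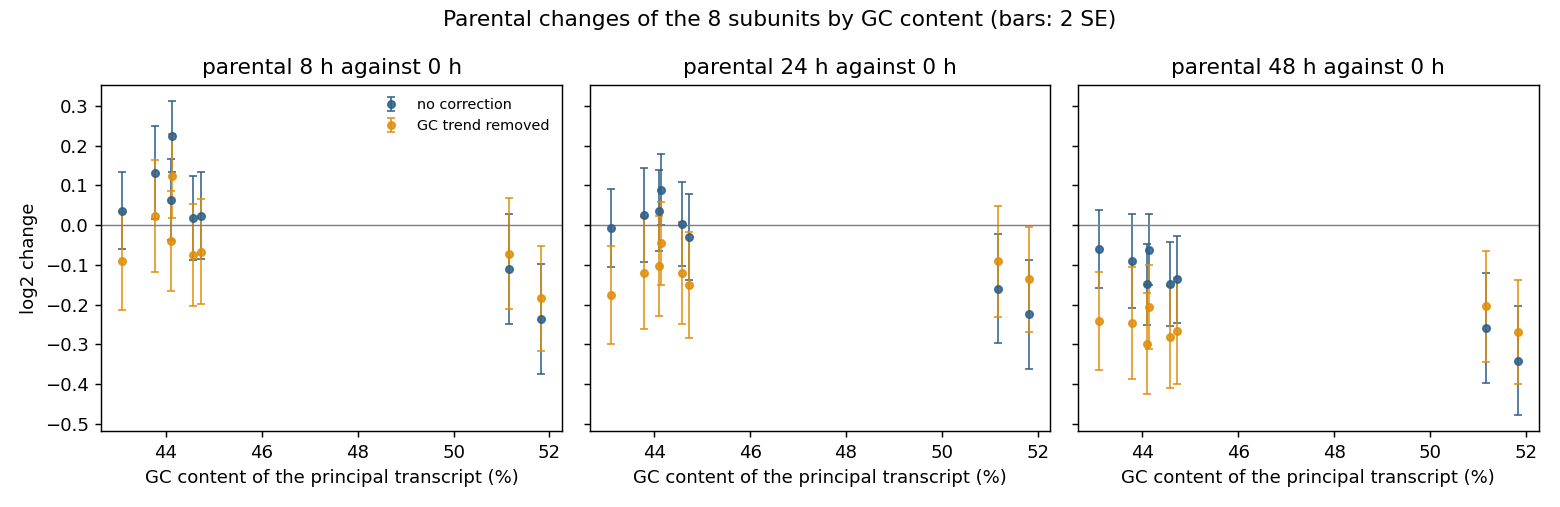
Log2 change from 0 h of the 8 subunits in parental cells at 8, 24 and 48 h against the GC content of the principal transcript (%), before (blue) and after (orange) removal of the GC trend, with bars of 2 SE. At 48 h the 2 subunits with the highest GC content lie lowest before the correction and among the others after it, when the 8 values run from -0.30 to -0.20.

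The difference between the lines in their response to 4-OHT was tested directly, as the change in MYC-ER cells minus the change in parental cells. At 8 h all 8 subunits passed the test (background 27.3% called higher), from 1.12 for CCT8 to 1.73 for CCT3, whose value was 1.73 (SE 0.098, adjusted p = 2.25e-12). At 24 h all 8 passed (background 27.7%), from 0.69 for CCT6A to 1.32 for TCP1. At 48 h all 8 passed (background 23.6%), with a median of 0.55, led by CCT7 at 0.71 (SE 0.098, adjusted p = 5.21e-06). CCT6A at 48 h was the weakest, at 0.17 (SE 0.063, adjusted p = 0.0332), and it missed the threshold with only the groups compared in the fit (0.17, adjusted p = 0.138) and without any filter on low counts (0.16, adjusted p = 0.0757). It also missed it when each of 7 libraries was left out in turn. Those were the first MYC-ER library at 0 h (0.14, adjusted p = 0.0975), the first (0.15, adjusted p = 0.0856) and the third (0.18, adjusted p = 0.0518) at 48 h, the first parental library at 0 h (0.15, adjusted p = 0.0745) and 8 h (0.14, adjusted p = 0.0679), and the first (0.13, adjusted p = 0.101) and second (0.16, adjusted p = 0.0744) at 48 h.

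Set against parental cells at the same time, MYC-ER cells crossed over and came back. At 8 h all 8 subunits were higher in MYC-ER cells (background 23.1%), most for TCP1, at 586, 577 and 579 CPM against 386, 370.4 and 384 CPM, a difference of 0.61 (SE 0.059, adjusted p = 1.74e-08). The smallest difference was that of CCT8, 0.21 (SE 0.049, adjusted p = 9.05e-04), beside CCT7 at 0.21 (SE 0.069, adjusted p = 0.0132). CCT7 missed the threshold without the first MYC-ER library at 8 h, at 0.20, adjusted p = 0.0506, and under library size scaling, at 0.13, adjusted p = 0.0553. The MYC-ER sum was 130.4% of the parental sum.

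At 24 h the sums were close, 3262 ± 66.2 CPM against 3157 ± 49.3 CPM, and the subunits parted. TCP1 was still higher in MYC-ER cells, at 517, 508 and 513 CPM against 353, 343 and 363 CPM, a difference of 0.54 (SE 0.059, adjusted p = 1.04e-07). CCT4 was slightly higher, 0.15 (SE 0.055, adjusted p = 0.0227), beside 23.5% of all genes called higher, and missed the threshold without the first (0.14, adjusted p = 0.0734) or the third (0.16, adjusted p = 0.0529) MYC-ER library or the first (0.14, adjusted p = 0.0773) or the third (0.15, adjusted p = 0.0556) parental library at 24 h. CCT6A was lower, -0.24 (SE 0.045, adjusted p = 1.02e-04), beside 25.8% called lower. The other 5 had differences between -0.09 and 0.11 that did not pass, though CCT8 did in 13 of 35 other settings. The count called higher was 5 with library size scaling and 4 with upper quartile scaling.

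By 48 h, 7 of the 8 were again lower in MYC-ER cells (background 29.4%), with a median of -0.62 and the MYC-ER sum at 66.1% of the parental one. CCT5 was lowest, at 198, 191 and 188 CPM against 348, 373 and 409 CPM, a difference of -0.97 (SE 0.053, adjusted p = 1.63e-12). TCP1 was the subunit that was not called, at 308, 298 and 288 CPM against 288, 329 and 360.4 CPM, where the groups overlapped and the difference was -0.13 (SE 0.059, adjusted p = 0.0679). It was called lower without the first parental library at 48 h, at -0.21, adjusted p = 0.00131, or the third parental library at 0 h, at -0.13, adjusted p = 0.0354. With library size or upper quartile scaling its sign turned, to 0.02, adjusted p = 0.778 and 0.01, adjusted p = 0.848. CCT8 then missed the threshold, at -0.09, adjusted p = 0.0598 and -0.09, adjusted p = 0.109.

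Although the 8 transcripts rose and fell together, their proportions shifted. The share of each in the summed CPM of the 8 is given as mean ± SD (n = 3). These shares follow transcript length as well as abundance, so they are compared only within a gene. CCT8 made up 10.1% ± 0.11 of the sum in untreated MYC-ER cells, 7.97% ± 0.12 at 8 h and 12.1% ± 0.16 at 48 h. CCT5 went the other way, from 11.04% ± 0.17 to 12.8% ± 0.020 at 8 h and 10.01% ± 0.024 at 48 h. TCP1 was at 13.4% ± 0.24 at 0 h, 15.7% ± 0.21 at 24 h and 15.5% ± 0.11 at 48 h, above its share in all 4 parental groups, where the means were between 10.6% and 11.6%. CCT6A had 11.3% ± 0.037 at 0 h and 8.93% ± 0.085 at 24 h. CCT4 stayed between 9.86% and 11.0% in MYC-ER cells. In untreated parental cells the shares varied most between libraries, with 25.99% ± 1.0 for CCT3 and 13.7% ± 0.99 for CCT7.

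**Figure D4:**
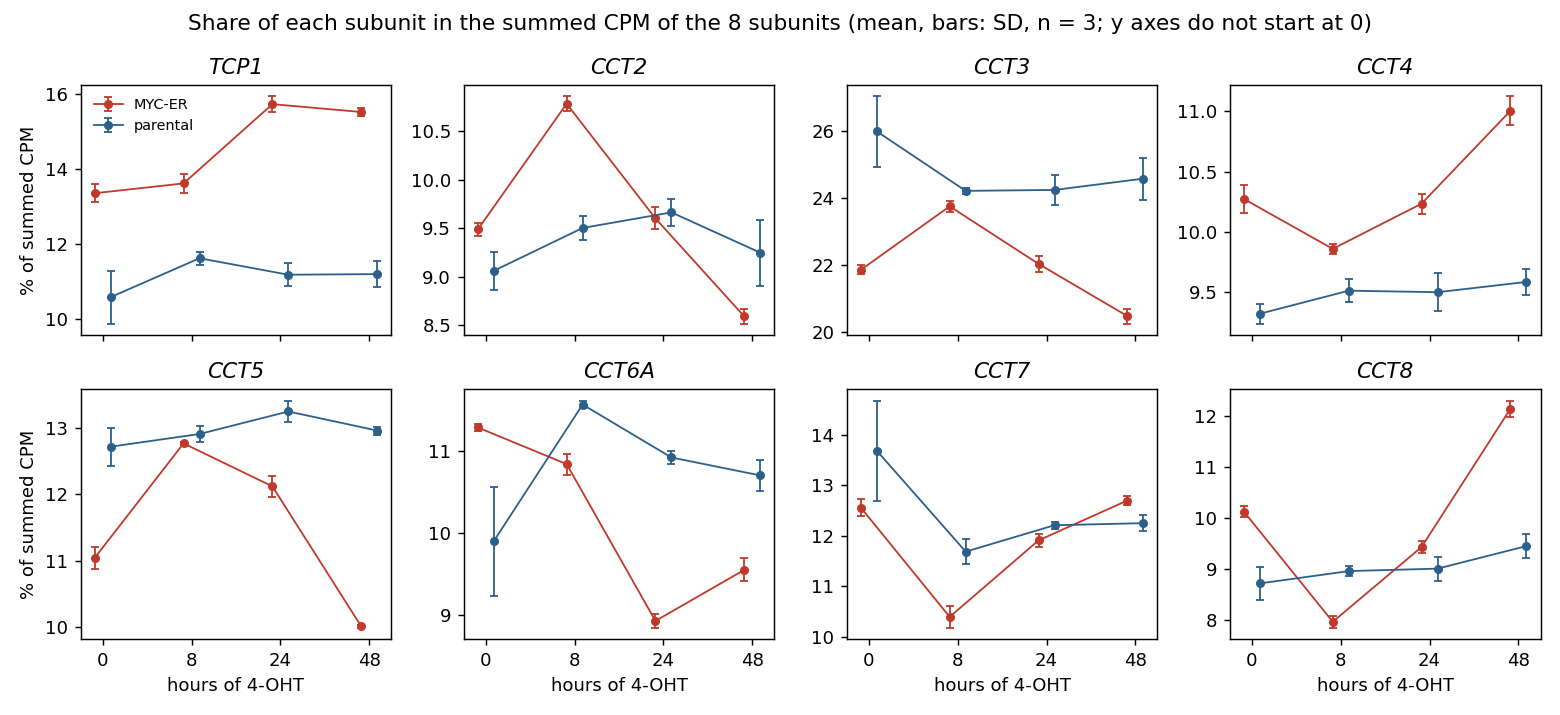
Share (%) of each subunit in the summed CPM of the 8 subunits against hours of 4-OHT (times evenly spaced), mean with SD bars (n = 3), MYC-ER in red and parental in blue; the y axes do not start at 0. CCT8 falls to 7.97% at 8 h and climbs to 12.1% at 48 h in MYC-ER cells, while CCT5 does the reverse.

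Per kilobase of principal transcript, CCT3 was the most abundant subunit in all 8 groups. It stood at 153 ± 5.597 CPM per kb in untreated MYC-ER cells, 471 ± 15.5 at 8 h and 398 ± 41.5 in untreated parental cells (SD, n = 3). The remaining 7 lay between 45.3 (CCT5) and 98.8 (CCT7) CPM per kb in untreated MYC-ER cells. At 8 h, TCP1 (232 ± 1.98) and CCT7 (232 ± 9.58) did not differ beyond their spread, with CCT2 next (225 ± 4.68). Neither did CCT6A, CCT8 and CCT4, from 167 to 170.1. These places depended on the transcript taken. With the median length of the coding transcripts, TCP1, CCT7 and CCT2 stood apart, at 327 ± 2.78, 265 ± 10.97 and 225 ± 4.68. CCT5 moved most in rank. Its principal transcript of 3675 bases put it last, and the median length of its coding transcripts, 1936 bases, put it at rank 3 at 8 h.

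Across the 24 libraries the log2 CPM of any pair of subunits correlated with r between 0.791 (CCT6A with TCP1) and 0.993 (CCT5 with CCT3), with a median over the 28 pairs of 0.938. The median was 0.981 over the 12 MYC-ER libraries and 0.777 over the 12 parental ones, where the lowest pair, CCT7 with CCT6A, had r = 0.110. These values describe libraries that share groups and scaling.

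The genes whose pattern over the 24 libraries was most like the mean of the 8 subunits were ranked among 9787 genes whose mean level was 10 CPM or more. The 10 closest had r from 0.983 to 0.987. They were GTPBP4, a GTPase of large ribosomal subunit assembly, SNRPA1, a U2 snRNP protein, RUVBL1, an ATPase of the R2TP co-chaperone, CTPS1, which makes CTP, MRPS6, a mitochondrial ribosomal protein, GAR1, a box H/ACA snoRNP protein, PVR, a cell adhesion receptor, MPHOSPH6, an exosome cofactor, HGH1, a chaperone that works with CCT, and HDAC2, a histone deacetylase. The median r of all genes compared was 0.206, and 602 genes, 6.15% of them, had r above 0.9. Within the 12 MYC-ER libraries the same 10 had r from 0.988 to 0.998, and within the 12 parental libraries from 0.397 (HDAC2) to 0.898 (SNRPA1).

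The 5 prime ends of the subunit genes were examined because the 8 transcripts moved together. RefSeq promoter windows of GRCh38.p14, from 250 bases before to 50 bases after a start, were matched for 7 subunits, all but CCT6A, with 9 windows in all, and motifs were sought on both strands. The E-box CACGTG, the classical MYC and MAX site, was in 0 of the 9 windows and in 7.26% of all 35116 windows. The looser CANNTG, which includes CACGTG, was in 4 windows (CCT2, CCT3 and CCT5) against 68.7% of all. A noncanonical E-box, CACGCG, was in 2 windows (CCT3 and CCT8), against 11.4%. CCAAT, bound by NF-Y, was in 4 windows (CCT2, CCT3, CCT8 and TCP1), against 34.6%. GGGCGG, bound by SP1 and its relatives, was in 6 windows of 5 subunits, against 45.0%, and the heat shock pattern GAANNTTC was in 2 (CCT2 and TCP1), against 6.77%. A match is a description of the letters and not a site of binding.
The CACGCG and CCAAT matches with 12 bases on either side are given 5′ to 3′ on the strand of the gene, with the motif in capitals (CGCGTG and ATTGG are the same motifs on the other strand).
CCT3 CACGCG: acgttcgcgctgCACGCGgccgggagcggc
CCT8 CACGCG: ctgggctgtctgCGCGTGcgtgagccagaa
CCT2 CCAAT: gcccgtggggctCCAATcaaaatgggacg
TCP1 CCAAT: atcggctatctaATTGGacaaaaatgccg
CCT8 CCAAT: aagggtgggctaATTGGagagccaggaag
CCT3 CCAAT, upstream: ctaaggctgtcaATTGGtctgtttttgtg
CCT3 CCAAT, downstream: atgggtgcggtgATTGGcgactaccttga
The CCT3 CACGCG lies at chr1:156338472-156338501, 197 bases before the RefSeq start and outside any GENCODE v29 exon, within CCT3 and TSACC, a gene on the opposite strand, and that of CCT8 at chr21:29073837-29073866, 206 bases before the start and upstream of the gene as GENCODE v29 annotates it. The CCAAT matches lie at chr12:69585356-69585384 (91 bases before the start), chr6:159789740-159789768 (154 bases), chr21:29073695-29073723 (63 bases), chr1:156338351-156338379 (75 bases) and chr1:156338310-156338338 (34 bases). All these coordinates span the match with its 12 bases on either side. In GENCODE v29 the CCAAT stretches lie in annotated exons and UTRs of the same genes, except that of TCP1. There only flanking bases reach the annotated gene, which ends at chr6:159789749, and the CCAAT itself lies upstream of it. Neither motif was in the windows of CCT4, CCT5 or CCT7, whose changes at 8 h in MYC-ER cells were 1.44, 1.71 and 1.23. CCT3 and CCT8, with both motifs, had 1.62 and 1.16. CCT2 and TCP1, with CCAAT but not CACGCG, had 1.69 and 1.53. A link between these motifs and the changes was not tested.

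Of the 8 genes, 5 start head to head with a protein-coding gene on the opposite strand, with starts at most 182 bases apart. Starts here are the outermost ends of the genes in GENCODE v29. The RefSeq start of CCT3 used above lies inside CCT3 as annotated there, and neighbours of that start were not sought. MRPL18, a mitochondrial ribosomal protein, starts 63 bases from TCP1. Its change in MYC-ER cells at 8 h was 0.80 (SE 0.067, adjusted p = 5.11e-10), beside 1.53 for TCP1, and at 48 h it was -0.30 (SE 0.066, adjusted p = 9.22e-04), beside 0.57. ATPSCKMT, a lysine methyltransferase of ATP synthase, starts 24 bases from CCT5 and rose by 1.22 (SE 0.075, adjusted p = 2.89e-12) at 8 h, beside 1.71. PSPH, the last enzyme of serine synthesis, starts 26 bases from CCT6A and rose by 0.40 (SE 0.069, adjusted p = 2.43e-05), beside 1.44. COMMD1, 80 bases from CCT4, rose by 0.56 (SE 0.100, adjusted p = 3.54e-05), and PRADC1, 182 bases from CCT7, by 0.55 (SE 0.095, adjusted p = 2.46e-05). All 5 neighbours were called higher at 8 h (background 32.2%), and each had a smaller value than its partner at that time, a difference that was not tested. PSPH had 0.85 at 24 h (SE 0.069, adjusted p = 4.16e-10), beside 0.78 for CCT6A, and the other neighbours were below their partners. At 48 h PRADC1 was lower than at 0 h, -1.02 (SE 0.097, adjusted p = 1.46e-08), while CCT7 was higher, 0.37. All 5 were called lower in untreated MYC-ER cells than in parental ones (background 32.7%), from -1.18 (ATPSCKMT) to -0.33 (PRADC1).

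Some loci share bases with the subunits. ACAT2, a sterol-pathway enzyme, overlaps TCP1 by 558 bases on the opposite strand, and its mean level ran from 18.6 CPM in untreated MYC-ER cells, where TCP1 was at 201 CPM, to 163 CPM in parental cells at 24 h, where TCP1 was at 353 CPM. TSACC lies inside CCT3 on the opposite strand with less than 1 CPM in every group mean. The library kit keeps strand, but whether the counting used it is not given in the sources used here. Of 14 pseudogene rows named after the subunits, 3 passed the low-count filter, and their counts reached at most 2.104% of the parent gene (CCT6P1 beside CCT6A) and at most 0.262% outside the CCT6A family. The antisense genes AC107081.2 (CCT4) and AC012640.4 (CCT5) and COMMD1, which overlaps CCT4 by 81 bases, were not compared in this way. Nor was AF129075.1, a sense intronic gene that overlaps CCT8 by 2023 bases on the same strand. Small nucleolar RNAs lie within TCP1 (SNORA29 and SNORA20) and within CCT6A (SNORA22B and SNORA15).

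The relatives of CCT were split. Of 7 genes, 6 were tested at 8 h in MYC-ER cells, of which 3 rose and 3 fell (background 32.2% higher and 35.4% lower), with a median of -0.46 beside -0.10 for all genes. HSPD1 and HSPE1, the chaperonin of mitochondria and its lid, rose by 1.37 and 1.69. MKKS rose by 0.14 (SE 0.051, adjusted p = 0.0242), whereas BBS10 (-1.30) and BBS12 (-1.20), which with it form the chaperonin-like complex of the BBSome, fell. The symbol MKKS matched 3 rows, and the row with the most counts was taken. Its change from 0 h was -0.18 at 24 h and -0.56 at 48 h. CCT6B, the testis-type paralogue of CCT6A, was at 1.24 ± 0.379 CPM at 0 h and 0.601 ± 0.0972 CPM at 8 h (SD, n = 3), and changed by -1.05 (SE 0.24, adjusted p = 7.03e-04).

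Factors that deliver clients to CCT or act beside it, and the separate R2TP co-chaperone, had list medians below the 1.49 of the subunits at 8 h. At that time 32.2% of all genes tested were called higher and 35.4% lower. Of the 9 prefoldin and prefoldin-like genes, 6 rose and 2 fell at 8 h, with a median of 0.45. PFDN2, shared by both prefoldin complexes, rose most, from 34.4 ± 1.14 CPM to 89.3 ± 4.82 CPM, a change of 1.38 (SE 0.084, adjusted p = 2.59e-12). PFDN6 rose by 0.91 and URI1, the core of the prefoldin-like complex, by 1.00. PFDN5, which also goes by the name MYC modulator MM-1, fell by 0.63 and PFDN4 by 0.39. Of 6 phosducin-like and other cofactors, 5 were tested, 4 rose and 1 fell, with a median of 0.99. HGH1 rose from 18.2 ± 0.298 CPM to 83.2 ± 2.99 CPM, a change of 2.19 (SE 0.071, adjusted p = 6.26e-17). TXNDC9 and PDCL3, phosducin-like proteins that bind CCT, rose by 1.17 and 0.99, and PDCL fell by 0.33. Of the 4 R2TP genes 3 rose, with a list median of 1.22, RUVBL1 at 1.90 and RUVBL2 at 1.31, while PIH1D1 had -0.04 (SE 0.081, adjusted p = 0.710). Of the 6 tubulin folding cofactors, which act after CCT releases tubulin, 4 rose and 2 fell, with a median of 0.34.

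The cytoplasmic actins and most tubulins, the main clients, had larger changes than the subunits, a difference that was not tested. ACTB, the main cytoplasmic actin, was at 539 ± 12.3 CPM in untreated MYC-ER cells and 4718 ± 187 CPM at 8 h, a change of 3.13 (SE 0.077, adjusted p = 7.00e-19). ACTG1 rose by 2.73, and ACTA2, smooth muscle actin, fell by 1.06. These were the 3 called of the 5 actins tested out of 6. The median of the 5, 1.16, was the value of ACTC1, which was imprecise and not called (SE 1.72, adjusted p = 0.562). Of 19 tubulin genes 15 were tested, of which 12 rose and 1 fell, with a median of 2.34. The background for actins and tubulins was 32.2% higher and 35.4% lower. TUBA1B was at 88.9 ± 2.42 CPM at 0 h, 1018 ± 41.97 CPM at 8 h and 1639 ± 37.5 CPM at 24 h, so that unlike the subunits it was highest at 24 h. TUBB3 rose from 2.203 ± 0.207 CPM to 62.8 ± 3.31 CPM, a change of 4.83 (SE 0.12, adjusted p = 1.48e-18). In untreated cells 12 of the 15 tubulins were lower and 2 higher in MYC-ER than in parental cells (background 32.7% lower and 31.6% higher), with a median of -2.80 against -1.02 for the subunits.

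Of 18 other reported clients, 12 rose and 4 fell at 8 h (background 32.2% higher and 35.4% lower), with a median of 0.60. CDC20, which activates the anaphase-promoting complex, was at 1.03 ± 0.230 CPM at 0 h, 9.63 ± 0.484 CPM at 8 h and 138 ± 1.695 CPM at 24 h. Cyclin E1 (CCNE1) rose by 1.84 at 8 h, the telomerase factor WRAP53 by 1.51, and the mTORC1 components RPTOR and MLST8 by 0.92 and 0.78. BBS2, a BBSome subunit, fell by 1.50. At 48 h the counts were 4 higher and 4 lower, near the background of 23.4% higher and 20.7% lower, with a median of 0.06. The tubulins then had 12 higher and 1 lower, with a median of 0.75.

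**Figure D5:**
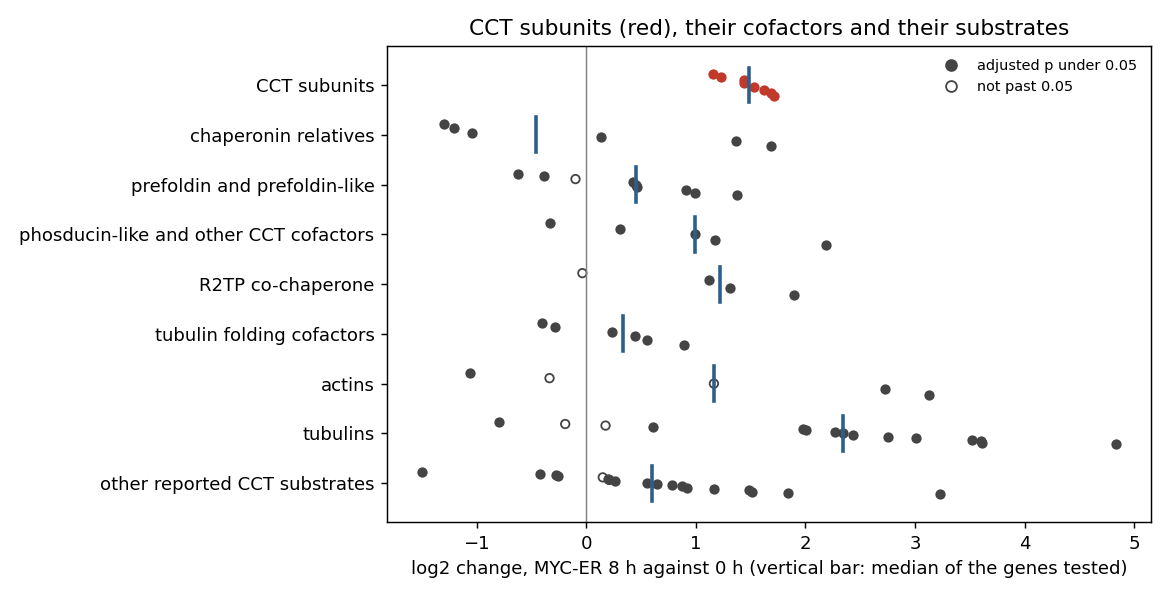
Log2 change of each tested gene at 8 h against 0 h in MYC-ER cells, by list, with the CCT subunits in red, filled points for adjusted p under 0.05, open points for the rest and a vertical bar at each list's median. The 8 subunits lie together between 1.16 and 1.71, while the tubulins run from -0.80 to 4.83.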

How the data were processed

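RNA was measured in 24 libraries, 3 for each of 8 groups (2 lines by 4 times of 4-OHT), grouped by the titles in the labels. The authors deposited 1 table of raw counts per gene, with Ensembl identifiers. Libraries were stranded, polyA-selected and read as 150-base pairs, per the labels' protocols. Trimmomatic 0.39, STAR, StringTie 2.1.3b and GRCh38 are named without roles, per the submitters' processing notes; if StringTie made the counts, they are estimates from coverage. Totals were 136860029 to 182438505 counts per library.

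Symbols were matched by Ensembl identifier (60340 of 60668 rows), and positions, transcript lengths and GC content came from GENCODE v29. edgeR 4.0.16 in R 4.3.3 was run with TMM scaling, its low-count filter (22158 genes kept), 1 mean per group and quasi-likelihood tests. The script was tested on simulated data. DESeq2 1.42.0, other scalings and filters, a replicate block, a GC correction (lowess, span 0.3), the compared groups alone and leaving out each library were the alternatives. Named genes were the 8 subunits, members of 8 gene lists, the 10 genes of most similar pattern, opposite-strand genes starting within 1 kb, pseudogenes, genes overlapping a subunit, and MYC. The members and lists were chosen with earlier results of these data known. Replicate numbers did not pair the samples.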

Additional observations from a re-analysis of the deposited data

Results flagged for a closer look

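Line by time differences were called for all 8 subunits at all 3 times, by a test of the difference itself in edgeR's quasi-likelihood fit. Of all genes tested, 27.3% at 8 h, 27.7% at 24 h and 23.6% at 48 h were called higher by that test. The log2 change in MYC-ER cells minus that in parental cells at 8 h was 1.40 for TCP1, 1.62 for CCT2, 1.73 for CCT3, 1.42 for CCT4, 1.69 for CCT5, 1.22 for CCT6A, 1.47 for CCT7 and 1.12 for CCT8.

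At 24 h the same difference was 1.32 for TCP1, 1.09 for CCT2, 1.28 for CCT3, 1.14 for CCT4, 1.24 for CCT5, 0.69 for CCT6A, 1.26 for CCT7 and 1.02 for CCT8. TCP1 had the largest value at this time and CCT6A the smallest.

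At 48 h it was 0.66 for TCP1, 0.36 for CCT2, 0.51 for CCT3, 0.59 for CCT4, 0.36 for CCT5, 0.17 for CCT6A, 0.71 for CCT7 and 0.67 for CCT8. The call of CCT6A at 48 h was lost in 2 other settings of the processing and when each of 7 libraries was left out. At that time CCT7 led, with a change of 0.37 in MYC-ER cells and -0.34 in parental cells. The 3 times share the 0 h libraries of both lines, so the 3 sets of values are not independent of each other.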

How the results depend on the processing

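The changes of the 8 subunits in 15 contrasts were recomputed under 35 settings, 4200 values in all. Of these, 4014 kept direction and call, 66 lost the call, 60 gained it and 60 turned sign. In MYC-ER cells all 8 calls at 8 and 24 h against 0 h and at 48 h against 24 h held in each setting, as did the 8 calls at 0 h against parental cells and the 8 line by time differences at 8 and 24 h. All but 3 of the turned signs were among 24 changes that were not called, most of them in parental cells; 14 of them turned sign and 14 passed the threshold in some setting. The causes were not tested.

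Scaling by library size turned the changes from 8 to 24 h in MYC-ER cells to TCP1 0.027, CCT7 0.015 and CCT8 0.063, those at parental 24 h to CCT4 0.0022 and CCT8 0.023, and the line differences to CCT3 0.035 and CCT5 0.044 at 24 h and TCP1 0.016 at 48 h. Upper quartile scaling gave CCT4 -0.017, CCT5 -0.023 and CCT8 -0.0042 at parental 8 h, TCP1 -0.054, CCT2 -0.043 and CCT5 -0.076 at parental 24 h, and line differences of CCT3 0.011 and CCT5 0.020 at 24 h and TCP1 0.014 at 48 h. At parental 24 h, CCT8 0.000080 came from DESeq2 size factors, CCT8 0.000074 from its Wald test and CCT8 0.0022 without a filter. With the GC trend removed, parental 8 h had CCT2 -0.040, CCT4 -0.067, CCT5 -0.075 and CCT8 -0.090, parental 24 h had TCP1 -0.12, CCT2 -0.10, CCT5 -0.12 and CCT6A -0.046, and the line difference at 24 h was CCT7 -0.0064. With the replicate block as well (chosen, like the next, after seeing the data) these were CCT2 -0.037, CCT4 -0.064, CCT5 -0.074 and CCT8 -0.089, then TCP1 -0.12, CCT2 -0.10, CCT5 -0.12 and CCT6A -0.045, and CCT7 -0.0064. With only the groups compared and the GC trend removed they were CCT2 -0.053, CCT4 -0.078, CCT5 -0.086 and CCT8 -0.10, then TCP1 -0.15, CCT2 -0.13, CCT5 -0.15 and CCT6A -0.074, and CCT7 -0.00032.

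Both library size and upper quartile scaling left 5 subunits called lower from 8 to 24 h. Library size scaling called 2 higher at parental 8 h, 1 higher at parental 24 h, 2 lower at parental 48 h and 5 higher than parental at 24 h. Upper quartile scaling called 2 lower at parental 24 h and 4 higher than parental at 24 h. The stricter filter called 2 lower at parental 24 h, and without a filter 1 was higher than parental at 24 h. With only the groups compared, 0 were called in parental cells at 8 h (higher or lower), at 24 h (lower) and at 48 h (lower), also with the GC trend removed. With the GC trend removed, 0 were higher at parental 8 h, 8 were lower at parental 48 h and 1 was higher than parental at 24 h.

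Leaving out a library gave 1 to 2 subunits called higher and 0 to 2 lower at parental 8 h, 0 to 1 higher and 0 to 2 lower at parental 24 h, 1 to 7 lower at parental 48 h and 1 to 3 higher than parental at 24 h. Signs turned within the ranges CCT4 -0.029 to 0.080 and CCT5 -0.018 to 0.058 at parental 8 h, TCP1 -0.0064 to 0.082, CCT2 -0.0066 to 0.10, CCT4 -0.082 to 0.035, CCT5 -0.032 to 0.052 and CCT8 -0.035 to 0.023 at parental 24 h, and CCT7 -0.011 to 0.028 between lines at 24 h.

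The replicate numbers did not pair the samples: deviations from group means correlated at -0.0776 to 0.0943 over 84 pairs with the same number. The replicate block left 8 subunits called higher at 8 h in MYC-ER cells and gave 5 lower at parental 48 h, and with the GC trend also removed it gave 0 higher and 0 lower at parental 8 h and 8 lower at parental 48 h. CACGTG was in 0 promoter windows, CANNTG in 4, and, chosen after seeing the data, CACGCG in 2, CCAAT in 4, GGGCGG in 6 and GAANNTTC in 2. Depth did not limit the subunits, each with at least 23640 counts.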
